A study of Mus musculus with 8 samples.

Results

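ASH2L belongs to the shared core of the KMT2 histone methyltransferases, which place methyl groups on lysine 4 of histone H3 at promoters. It was mapped by ChIP-seq in mouse embryo fibroblasts, and the genes described here are those of mitochondrial metabolite carriers (Slc25a) and of subunits of the protein import machinery (Timm and Tomm). They were all protein-coding genes of the GENCODE annotation of mm10 whose symbols start with Slc25a and a number, Timm or Tomm. The rule gave 73 of 21938 protein-coding genes, of which 47 were carriers and 26 were import genes (16 Timm and 10 Tomm). It used symbols only, so it included Slc25a17, a carrier of peroxisomes, Timmdc1, which assists the assembly of respiratory complex I, and Tomm34, a cytosolic cochaperone. The uncoupling proteins and the motor of the TIM23 complex have other symbols and were examined separately.

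All 8 libraries came from iMEF cells, immortalised fibroblasts whose floxed Ash2l alleles had lost exon 4 through an inducible Cre-ER and which lived on a lentiviral human ASH2L fused to an FKBP12 degradation tag and HA epitopes. There were 2 replicates in each of 4 groups: precipitates without dTAG, precipitates after 1 h of dTAG, and the input of either condition. dTAG is a degrader that brings the tagged protein to a ubiquitin ligase. The study established such cells as selected clones, and the labels do not name the clone behind these libraries. The labels give Ash2l as the antibody, whereas the study describes precipitation through the HA epitope.

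The values analysed were the positions of 6444 ASH2L sites pooled by the authors over all samples, of which 6428 lay on the 21 assembled nuclear chromosomes. The list has no signal per site or per library, so neither the depth nor the effect of dTAG is shown by it, no value below has a replicate error, and a gene without a listed site may still bind ASH2L below the calling threshold. A promoter site is a site centred within 1 kb of any annotated transcription start site (TSS) of a gene.

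Carriers of the SLC25 family sit in the inner mitochondrial membrane and exchange nucleotides, phosphate, amino acids, carboxylates and cofactors between the matrix and the cytosol. Nearly all mitochondrial proteins, carriers included, are made in the cytosol. They enter through the TOM complex of the outer membrane, where Tomm20, Tomm22 and Tomm70a act as receptors and Tomm40 forms the pore. Small TIM chaperones of the intermembrane space then escort carrier precursors to the TIM22 complex, which inserts them into the inner membrane, whereas proteins with a presequence pass through the TIM23 complex into the matrix.

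The first comparison asked how many carriers and import genes had ASH2L at their promoters. Of the 47 carriers, 6 had a promoter site, namely Slc25a16, Slc25a24, Slc25a36, Slc25a46, Slc25a51 and Slc25a53. The share was 12.8%, close to the 14.0% of all protein-coding genes (3078 of 21938). Of the 26 import genes, 6 had one, namely Timm8b, Timm9, Timm13, Timm29, Tomm20 and Tomm22, a share of 23.1%. Each of these 12 genes had a single promoter site.

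The Wilson 95% confidence intervals, which cover counting error only, were 5.98 to 25.2% for carriers and 11.0 to 42.1% for import genes, and both include the 14.0% of all genes. The share was 10.3 percentage points higher for import genes, with an interval from -6.98 to 30.5 that includes no difference. The direction depended on how shared promoters were counted. At 3 of the 6 import genes with a site a TSS of another gene was nearer to the site centre, and when their sites were not counted, an alternative added once the values had been seen, the import share was 11.5% and the difference -1.23 percentage points. Genes are not replicates, and no p-value was computed.

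**Figure D1:**
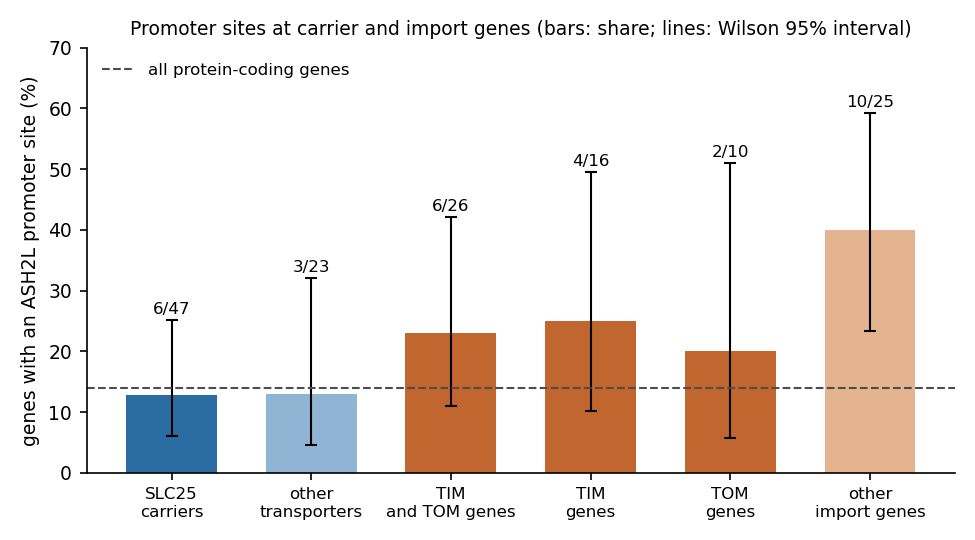
Share of genes with an ASH2L promoter site (percent, vertical axis) for SLC25 carriers, other mitochondrial transporters, all TIM and TOM genes, TIM genes, TOM genes and other import genes. Lines show Wilson 95% confidence intervals, the numbers give genes with a site over all genes, and the dashed line is the 14.0% of all protein-coding genes, which lies inside every interval but that of the other import genes (23.4 to 59.3%), a list that was chosen with earlier results known and counts 1 shared site at both Hspd1 and Hspe1.

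Within the carriers, sites were found in 2 of the 12 substrate classes and at genes with no substrate assigned here. Single classes are small, and their counts are given as a description beside the 14.0% of all genes and 19.0% of those with a CpG island. The class of other nucleotides and cofactors had 3 sites at 8 genes: Slc25a16, which has been linked to coenzyme A, Slc25a36, a carrier of pyrimidine nucleotides, and Slc25a51, the carrier of NAD. Of the 4 exchangers of ATP-magnesium for phosphate, Slc25a24 had a site and Slc25a23, Slc25a25 and Slc25a41 had none. The 9 genes given no substrate here included Slc25a46, a protein of the outer membrane that takes part in mitochondrial dynamics, and Slc25a53. No site was found at the 3 ADP/ATP exchangers Slc25a4, Slc25a5 and Slc25a31, at the phosphate carrier Slc25a3, at the 4 carriers of aspartate and glutamate (Slc25a12, Slc25a13, Slc25a18 and Slc25a22), at the citrate carrier Slc25a1 or at the carnitine carrier Slc25a20. The iron carriers Slc25a28 and Slc25a37 and the glutathione carriers Slc25a39 and Slc25a40 had none either.

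Within the import genes, the sites lay at or beside genes of receptors, small chaperones and a TIM22 subunit. Those at Timm8b, Timm9 and Timm29 were nearer to another gene, and counted by the nearest TSS only Timm13, Tomm20 and Tomm22 remained. Counts per complex are small and are given as a description beside the 14.0% of all genes and 19.0% of those with a CpG island. Of the 7 genes of the TOM complex, the receptors Tomm20 and Tomm22 had a site. The receptor Tomm70a, the pore gene Tomm40 and the small subunits Tomm5, Tomm6 and Tomm7 had none. Of the 7 small TIM chaperones, Timm8b, Timm9 and Timm13 had a site, but not Timm8a1, Timm8a2, Timm10 and Timm10b. TIM9 works in a complex with TIM10, and TIM8 in one with TIM13. Of the TIM22 complex, Timm29 had a site and the channel gene Timm22 had none. None of the 6 genes of the TIM23 complex (Timm17a, Timm17b, Timm21, Timm23, Timm44 and Timm50) had one, a number too small to set apart from the 14.0% of all genes. The paralogues Tomm20l and Tomm40l had none, and neither did Tomm34 or Timmdc1.

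The 12 sites were placed around the TSS as follows, with positions in mm10. At Slc25a51 the site spanned 45408410 to 45408729 on chromosome 4 (320 bp) and was centred in an intron, 76 bp downstream of the nearest TSS of the gene. The site of Slc25a36 spanned 97110631 to 97111157 on chromosome 9 (527 bp) and was likewise intronic at its centre, 93 bp downstream. These were the carrier sites closest to a TSS.

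At Slc25a16 the site spanned 62920711 to 62921012 on chromosome 10 (302 bp), and its centre, 182 bp downstream, was in coding sequence. The Slc25a24 site, 109123381 to 109123668 on chromosome 3 (288 bp), was centred in an intron 363 bp downstream and was the farthest from a TSS among all 12. Its nearest TSS was that of a noncoding transcript, as were those of Slc25a36, Slc25a53 and Timm13. The Slc25a46 site, 31609654 to 31609905 on chromosome 18 (252 bp), was centred in coding sequence 122 bp downstream.

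At Slc25a53 the site spanned 137038043 to 137038271 on the X chromosome (229 bp) and was centred in an intron 115 bp downstream. Of the 6 carrier and import genes on the X chromosome, Slc25a53 was the only one with a site, where 2.53% of all 948 protein-coding genes had one. Slc25a5, Slc25a14, Slc25a43, Timm8a1 and Timm17b had none.

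Among the import genes, the site of Tomm20 spanned 126945567 to 126945799 on chromosome 8 (233 bp) and was centred in coding sequence, 157 bp downstream of the TSS. The site of Tomm22 was wider, from 79670690 to 79671298 on chromosome 15 (609 bp), and was centred 97 bp upstream of the nearest TSS but 133 bp downstream of the start of the gene, in coding sequence. The site of Timm13, 80900564 to 80900791 on chromosome 10 (228 bp), was centred in coding sequence 104 bp downstream. That of Timm29, 21592788 to 21593268 on chromosome 9 (481 bp), was centred in coding sequence 306 bp downstream. The remaining pair were centred outside the gene. The Timm9 site, 71136501 to 71137125 on chromosome 12, was the widest of the 12 with 625 bp and was centred at an offset of -129 bp. The Timm8b site, 50603481 to 50603755 on chromosome 9 (275 bp), had an offset of -292 bp.

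All 6 carrier sites were therefore centred downstream of the nearest TSS of the gene, compared with 3 of the 6 import sites and 61.4% of the 3640 pairs of a protein-coding gene and a promoter site. The median offset was 118.5 bp for carriers (76 to 363 bp) and 3.5 bp for import genes (-292 to 306 bp), so that the ranges overlapped, and 50.0 bp for all genes. These values depended on the TSS chosen. Measured from the annotated start of the gene, the medians were 212.5 bp for carriers (131 to 376 bp) and 147 bp for import genes (-292 to 306 bp), and over all 12 sites the median went from 109.5 to 178.5 bp. Of the 12 centres, 6 lay in coding sequence, 4 in introns and 2 outside the gene. The site covered the nearest TSS at 6 genes and missed it at the other 6. Widths were a median of 295 bp for carriers (229 to 527 bp), 378 bp for import genes (228 to 625 bp) and 303 bp for all genes. None of the 12 sites had the minimum width of 200 bp, which 9.23% of the gene and site pairs had.

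**Figure D2:**
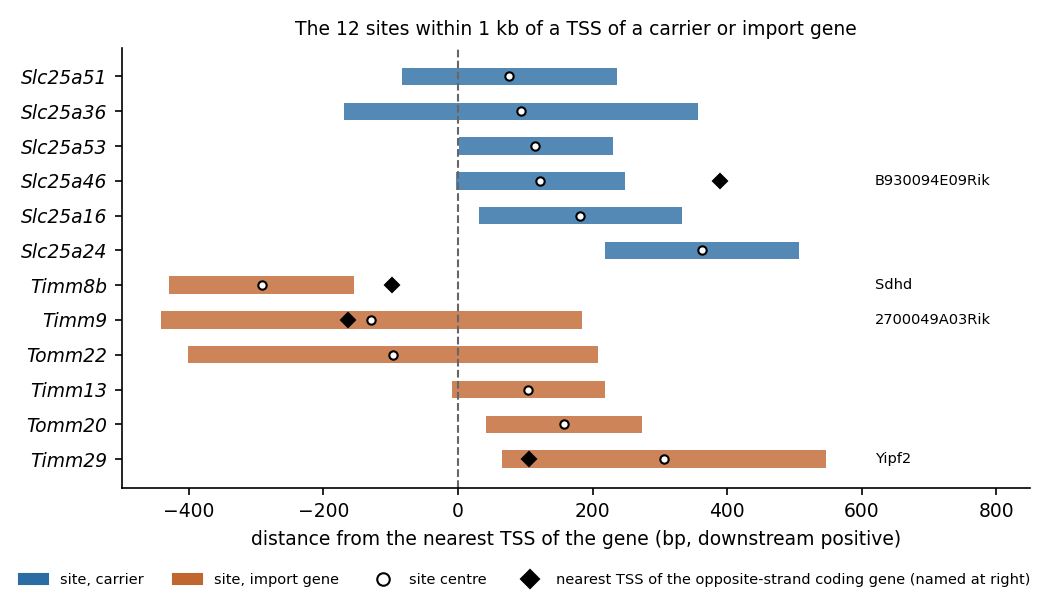
Extent of each of the 12 sites relative to the nearest TSS of the gene (bp, downstream positive, horizontal axis), with the site centre as an open circle and the nearest TSS of an opposite-strand coding gene as a diamond. All 6 carrier centres lie right of 0, whereas those of Timm8b, Timm9 and Tomm22 lie left of it.

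Several of these promoters were shared with a second coding gene on the opposite strand, so that a site cannot be credited to one of the genes. The site at Timm8b was centred 194 bp downstream of the TSS of Sdhd, which encodes a subunit of succinate dehydrogenase, and 292 bp from Timm8b. The TSSs of the pair were 98 bp apart and pointed away from each other. The site at Timm9 was centred 35 bp from the TSS of 2700049A03Rik and 129 bp from that of Timm9, in the 164 bp between these divergent starts. At Timm29 and Yipf2 the transcripts overlapped by their first 106 bp, and the centre was 200 bp from Yipf2 and 306 bp from Timm29. Among the carriers, only the Slc25a46 site had another coding gene within 1 kb, B930094E09Rik at 268 bp, and there the carrier's TSS was the nearer one at 122 bp. A TSS of another gene of any type was nearer than that of the gene itself in 0 of 6 carrier sites, 3 of 6 import sites and 17.2% of all gene and site pairs.

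Divergent promoters were not limited to genes with a site. Among the 12 genes with a site, 5 (Slc25a24, Slc25a36, Slc25a53, Timm8b and Timm9, 41.7%) had an antisense neighbour that started within 1 kb upstream, as did 15 of the 61 without a site (24.6%). Over all protein-coding genes the shares were 36.7% and 15.2%.

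Promoter sequence is shown for 5 genes with a site and, for contrast, 1 without, all chosen after their values were seen. Timm9 and Timm8b show the gaps of divergent gene pairs, and the others show motif matches near the start, so that genes with an E-box are over-represented among them. Each stretch ends at the base before the annotated start of the gene, runs 5′ to 3′ on the strand of the gene, stops at the first annotated exon of a neighbour or at 250 bases, and comes from GRCm38.p6, the build of the files. Capitals mark exact matches to the motifs described below. For Timm9 the stretch is the whole gap to 2700049A03Rik (chr12:71136685-71136847, minus strand, 163 bases), and all of it lay inside the ASH2L site. For Timm8b it is the gap to Sdhd (chr9:50603813-50603909, plus strand, 97 bases), and the site lay beyond it, within Sdhd.
Timm9: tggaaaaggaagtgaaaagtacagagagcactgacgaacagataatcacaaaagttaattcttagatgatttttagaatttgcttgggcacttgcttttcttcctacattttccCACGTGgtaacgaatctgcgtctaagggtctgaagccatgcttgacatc
Timm8b: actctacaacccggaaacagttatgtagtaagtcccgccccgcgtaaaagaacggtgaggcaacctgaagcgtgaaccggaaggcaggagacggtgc

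The Timm9 gap held an E-box from 49 to 44 bases before the start of the gene. No searched motif was matched in the Timm8b gap. For Tomm20 (chr8:126945845-126946094, minus strand), Slc25a36 (chr9:97111158-97111407, minus strand) and Slc25a51 (chr4:45408767-45409016, minus strand) 250 bases are shown, and here the site began at or after the first base of the gene, with no printed base inside it.
Tomm20: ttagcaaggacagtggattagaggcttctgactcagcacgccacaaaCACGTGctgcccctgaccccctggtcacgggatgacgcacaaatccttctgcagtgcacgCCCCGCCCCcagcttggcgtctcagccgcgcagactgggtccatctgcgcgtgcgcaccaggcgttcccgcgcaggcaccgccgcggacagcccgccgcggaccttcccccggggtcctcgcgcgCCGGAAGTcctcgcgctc
Slc25a36: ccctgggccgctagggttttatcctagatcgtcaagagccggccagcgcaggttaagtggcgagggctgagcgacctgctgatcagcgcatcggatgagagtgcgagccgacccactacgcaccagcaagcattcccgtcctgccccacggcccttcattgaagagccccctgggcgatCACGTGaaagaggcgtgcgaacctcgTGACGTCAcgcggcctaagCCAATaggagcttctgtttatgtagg
Slc25a51: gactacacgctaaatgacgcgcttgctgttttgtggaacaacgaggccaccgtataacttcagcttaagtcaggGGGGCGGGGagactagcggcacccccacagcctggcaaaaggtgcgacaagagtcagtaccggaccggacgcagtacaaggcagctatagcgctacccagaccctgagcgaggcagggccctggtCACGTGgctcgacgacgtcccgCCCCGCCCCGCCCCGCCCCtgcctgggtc

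In Tomm20 the ETS match was 18 to 11 bases before the start, with an E-box at 203 to 198 bases. Slc25a36 had an E-box (71 to 66), a CRE (45 to 38) and a CCAAT box (26 to 22 bases before the start). Slc25a51 had an E-box at 51 to 46 bases and overlapping SP/KLF matches between 29 and 11 bases. Timm23, the channel gene of the TIM23 complex, had an ETS match 41 to 34 bases before its start and its nearest site 264984 bp away. Its stretch (chr14:32201899-32201948, minus strand, 50 bases) begins after an exon of Parg.
Timm23: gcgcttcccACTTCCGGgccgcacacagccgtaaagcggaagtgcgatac

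Motif matches were then counted at all 73 genes, in windows from 250 bases before to 50 bases after the annotated start of the gene. Matches were exact and on either strand, for ETS (CCGGAAGT), NRF1 (GCATGCGC), YY1 (AAGATGGCG), NFY (CCAAT), SP/KLF (CCCCGCCCC), CRE (TGACGTCA) and the E-box (CACGTG). No motif of the 7 is contained in another, and a match is not a measured binding site. ETS was matched at 7 of the 26 import genes (26.9%) and at 4 of the 47 carriers (8.51%), against 4.70% of all protein-coding promoters and 6.27% of those with a CpG island. The import genes were Timm8a2, Timm10, Timm23, Timm29, Timmdc1, Tomm20 and Tomm70a, and the carriers were Slc25a11, Slc25a20, Slc25a26 and Slc25a46. An ETS match was present at 3 of the 12 genes with a site (25%) and at 8 of the 61 without (13.1%). Over all protein-coding genes the shares were 10.6% and 3.74%. Within 100 bp of the site centre, or of the TSS for genes without a site, they were 0% and 14.8% at the carriers and import genes.

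The E-box, the motif of MYC and related factors, was matched at 11 carriers (23.4%) and 5 import genes (19.2%), against 7.75% of all promoters and 9.50% of those with an island. It was present at 5 of the 12 genes with a site, namely Slc25a36, Slc25a46, Slc25a51, Timm9 and Tomm20, and at 11 of the 61 genes without (18.0%). This order turned with the window: within 100 bp of the site centre, or of the TSS for genes without a site, the shares were 8.33% and 14.8%. Over all protein-coding genes the E-box was present at 9.0% of those with a site and 7.55% of those without, and over those with a CpG island at 9.02% and 9.61%. The CCAAT letters of NFY were matched at 1 of the 12 genes with a site (Slc25a36) and at 30 of the 61 without (49.2%), compared with 34.4% and 39.8% over all genes. NRF1 was matched at 4 (5.48%), YY1 at 3 (4.11%), CRE at 2 (2.74%) and SP/KLF at 10 (13.7%) of the 73 genes. In the same order, the shares over all protein-coding genes were 3.71, 1.70, 2.43 and 14.5%. Over those with a CpG island they were 4.56, 2.28, 2.96 and 19.3%. The shares at carriers and import genes rest on few genes and were not tested.

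**Figure D3:**
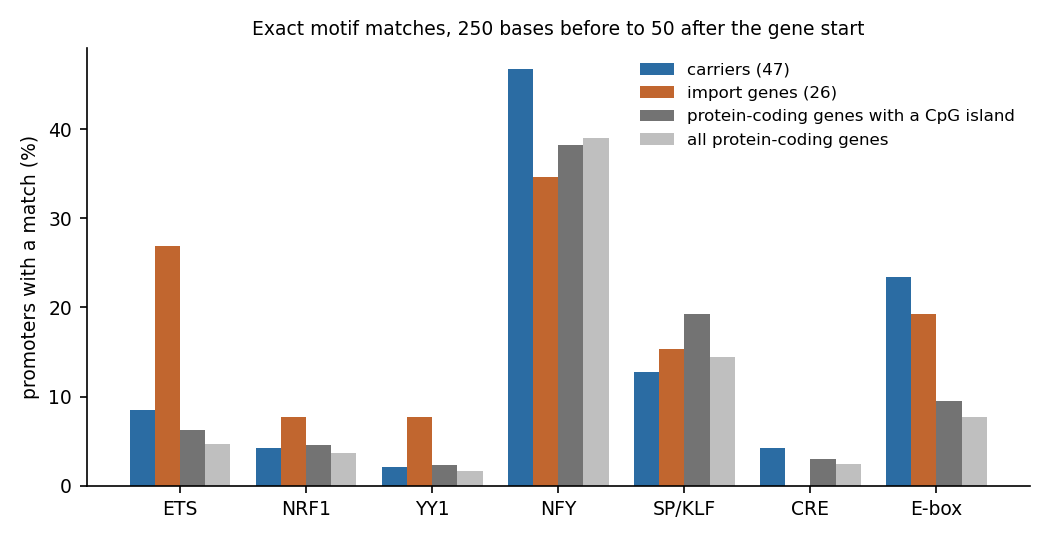
Share of promoters with an exact match (percent, vertical axis) to each of 7 motifs for carriers, import genes, protein-coding genes with a CpG island and all protein-coding genes. Among the plotted gene sets, import genes have the highest share with an ETS match (26.9%). The E-box is above the 7.75% of all promoters in both carriers (23.4%) and import genes (19.2%).

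CpG islands, stretches of CpG-rich DNA that KMT2 complexes can recognise, were found within 1 kb of a TSS at 69 of the 73 genes (94.5%), against 73.4% of all protein-coding genes. All 26 import genes had an island. The 4 carriers without an island, Slc25a18, Slc25a34, Slc25a41 and Slc25a45, had no site. Read among genes with an island, 6 of 43 carriers (14.0%) and 6 of 26 import genes (23.1%) had a site, compared with 19.0% of all 16099 such genes. An island was thus present at 57 of the 61 genes without a site.

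The ratio of observed to expected CpG in the promoter window had a median of 0.719 at carriers with a site (0.588 to 0.949) and 0.604 at carriers without (0.0383 to 1.11). At import genes the medians were 0.863 (0.525 to 0.988) and 0.663 (0.102 to 0.982). The ranges overlapped in both families. Over all genes the medians were 0.825 with a site and 0.443 without, so the genes without a site described here had a higher median ratio than all genes without one. Median GC content was 63.2% at carriers with a site and 58.0% at carriers without, and 56.3% and 56.7% at import genes. The median number of annotated TSSs was 3.5 for the 12 genes and 4 for the other 61, compared with 5 and 3 over all protein-coding genes.

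**Figure D4:**
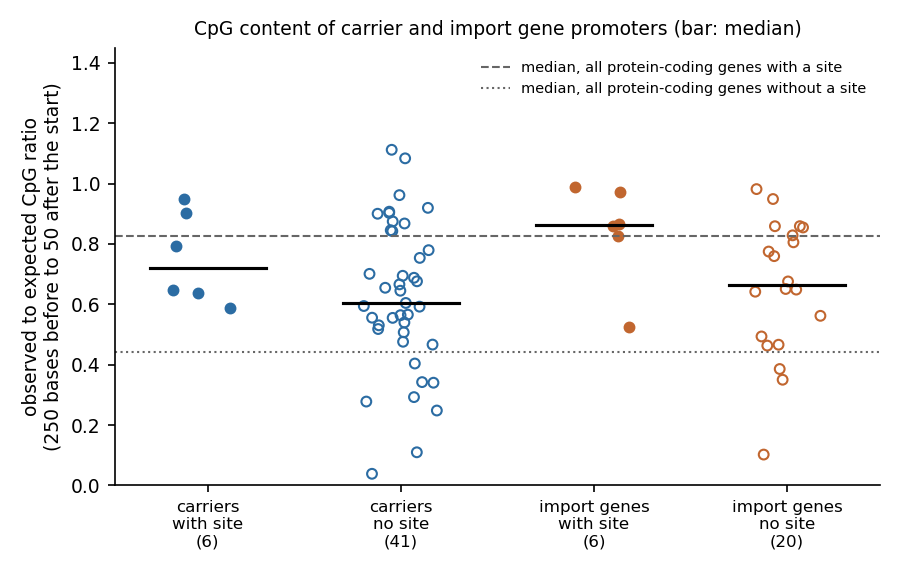
Ratio of observed to expected CpG (vertical axis) in the promoter window of each carrier and import gene, with (filled) and without (open) a promoter site. Bars are medians (0.719, 0.604, 0.863 and 0.663), and the lines mark the medians of all protein-coding genes with (0.825) and without (0.443) a site.

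The 12 genes with a promoter site had a centre at 76 to 363 bp from a TSS, Slc25a24 being the farthest. The next gene, Slc25a11, the carrier of oxoglutarate, was 6486 bp from a site. No gene of the 73 had its nearest site between 1 and 3 kb, a range that was also rare among all protein-coding genes without a promoter site (293 of 18860).

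Carriers without a site were at a median of 70813 bp from the nearest site (6486 to 780455 bp, the largest at Slc25a2), import genes at 103486 bp (24753 bp at Tomm40l to 894174 bp at Timm17a) and all genes without a site at 123896 bp. Within 20 kb of a site were 8 of these 41 carriers (19.5%), among them the ADP/ATP exchanger Slc25a4 at 8315 bp and the carnitine carrier Slc25a20 at 12998 bp. None of the 20 import genes was this close, and 12.1% of all protein-coding genes without a promoter site were. For other carriers the distances were 34574 bp at Slc25a3, 70813 bp at Slc25a12, 93148 bp at Slc25a13, 155394 bp at Slc25a5, 167478 bp at Slc25a1 and 373646 bp at Slc25a31. Among import genes they were 38211 bp at Tomm40, 48984 bp at Timm44, 93855 bp at Timm22, 111200 bp at Timm10, 177408 bp at Timm17b, 268665 bp at Tomm70a, 307390 bp at Timm50 and 855826 bp at Timm8a1.

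**Figure D5:**
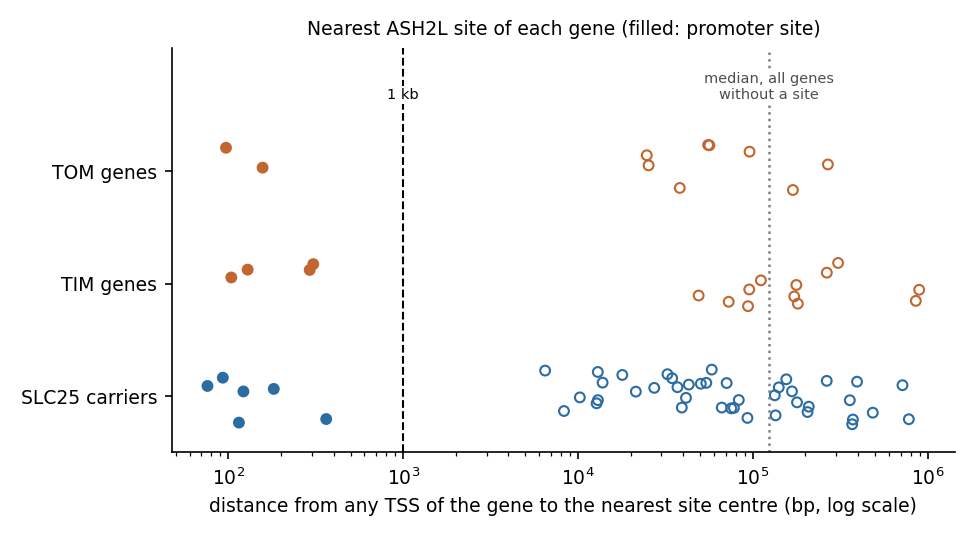
Distance from any TSS of each gene to the nearest ASH2L site centre (bp, log scale) for carriers, TIM genes and TOM genes, with filled circles for promoter sites. The 12 filled points lie at 76 to 363 bp, no gene lies between 363 and 6486 bp, and the dotted line marks the median of all protein-coding genes without a site (123896 bp).

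Genes of the same pathways with other symbols were examined as lists. Of 25 other genes of import, 10 had a promoter site (40.0%, Wilson 95% confidence interval 23.4 to 59.3%), compared with 14.0% of all protein-coding genes and 19.0% of those with a CpG island. All 25 had an island, and 12 of them (48%) had a divergent antisense neighbour, against 18.3% of all genes. They included 3 of the 6 genes of the TIM23 motor, which pulls precursors into the matrix: Hspa9, the mitochondrial HSP70, with a site of 480 bp, Dnajc19 with 231 bp and the nucleotide exchange factor Grpel2 with 200 bp. The Grpel2 site had the minimum width, and leaving out such sites was not tried for these lists. Romo1, a small inner membrane protein tied to the TIM23 channel, had a site of 311 bp centred 23 bp downstream of its TSS. No site was found at Pam16, Dnajc15 and Grpel1 of the same motor. Timm44, which tethers this motor to the channel and was counted with the TIM23 complex, had none either.

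Of 6 genes of presequence processing, Pmpcb, a subunit of the matrix processing peptidase, had a site of 349 bp, and the peptidase genes Mipep and Xpnpep3 had sites of 222 and 359 bp. Pmpca, Immp1l and Immp2l had none. The chaperonin genes Hspd1 and Hspe1 were counted separately but shared 1 site of 473 bp in their divergent promoter, centred 99 bp downstream of the Hspd1 TSS, so the 10 genes stood for 9 sites. When a site counted only for the gene with the nearest TSS, Hspe1 and Xpnpep3 lost theirs and 8 of the 25 genes had one (32%, 17.2 to 51.6%). This interval includes the 19.0% of genes with an island, but that share counted a site for every gene within 1 kb. The share over genes with an island was not computed by the nearest TSS, so the 2 values are not alike. In the outer membrane, Dnajc11 had a site of 419 bp, whereas Samm50, Mtx1, Mtx2 and Mtx3 had none. The intermembrane space relay (Chchd4 and Gfer), the insertases Mtch1 and Mtch2 and Oxa1l had none.

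Of 23 other transporters and channels of mitochondria, 3 had a promoter site (13.0%, Wilson 95% confidence interval 4.54 to 32.1%). This was close to the carriers' 12.8% and to the 14.0% of all protein-coding genes. An island was present at 22 of the 23 genes, and 19.0% of all genes with an island had a promoter site. Among the 3 were the outer membrane channels Vdac1 (200 bp, the minimum width, centred 189 bp downstream) and Vdac2 (324 bp, at an offset of -64 bp). Vdac3, the uncoupling proteins Ucp1, Ucp2 and Ucp3, both subunits of the pyruvate carrier, 7 genes of calcium transport and 5 sideroflexins had none. The pyruvate carrier gene Mpc2 had its nearest site 1205 bp from a TSS, just beyond the window of 1 kb. Wider windows were not applied to these lists.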

How the data were processed

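Per the study's methods and the submitters' processing notes, the authors used Trim Galore for trimming, BWA for alignment (mm10), SAMtools for filtering, Picard for merging of replicates and MACS2 for narrow peaks. The deposited list gives the chromosome, start and end of each site. How sites were combined over samples is not given in the sources used here. No column holds a value per library, and dTAG was not compared.

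Starts were read as counted from 0 and are printed from 1. The 16 sites off the assembled nuclear chromosomes were left out. TSSs were those of GENCODE mouse release 21, older than the release the authors used. The sequence was GRCm38.p6, with which all 32851 RefSeq promoter windows matched base for base. A gene was given a CpG island when any window of 200 bp reaching within 1 kb of a TSS passed both limits. These were GC above 50% and an observed to expected CpG ratio above 0.6. The study instead took island coordinates from UCSC. Intervals are Wilson and, for the difference of shares, Newcombe. The functions were tested on simulated sites. The work used Python 3.11.15 with SciPy 1.17.1, pandas 2.3.3 and NumPy 2.4.6, and figures were drawn in matplotlib 3.10.9.

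The members, lists and motifs were chosen with earlier results of these data known. The text names every carrier and import gene with a promoter site, a fixed set of core genes without one and the related genes with one, except 1 that is counted but not reported here. Other genes, and the printed promoters, were chosen after their values were seen. Alternatives changed the window, the TSSs, the tie of site to gene, the narrowest sites, the genes counted and the motif window.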

Additional observations from a re-analysis of the deposited data

How the results depend on the processing

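No paired analysis was possible because the list pools all libraries, and leaving out a replicate was not possible for the same reason. Of 57 alternatives to 23 values, 52 stayed within the 95% interval of the value reported, including the one that reversed. The same 12 genes had a site with windows of 500 bp or 3 kb, with the TSSs of protein-coding transcripts, with the start of each gene, with any base of the site within 1 kb and without the sites of 200 bp. The difference between import genes and carriers ranged from 9.12 to 16.7 percentage points over the other alternatives. The lowest was among genes with a CpG island. The highest left out the carriers with no substrate assigned here, Timmdc1, Tomm20l, Tomm40l and Timm8a2, with shares of 10.5% for carriers and 27.3% for import genes. The difference reversed to -1.23 when a site counted only for the gene with the nearest TSS, by construction because 3 import genes then lost their site. In motif windows of 100 bp on each side of the site centre, the share of the 12 genes with a match fell to 0% for ETS (25% in the main window), NRF1 (8.33%), SP/KLF (16.7%) and CRE (8.33%) and to 8.33% for the E-box (41.7%). At the 61 genes without a site, with windows around the TSS, the shares were 14.8% for ETS, 3.28% for NRF1, 8.20% for SP/KLF, 1.64% for CRE and 14.8% for the E-box, so that for these 5 motifs the genes with a site went from the higher to the lower share. This alternative changed both the place and the length of the window, and the cause was not tested. The list has no depth or signal, so weaker sites cannot be told from absent ones.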
